A study of Rattus norvegicus with 17 samples.

Results

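The comparison set the testes of rat fetuses exposed to 300 mg/kg/d of dipentyl phthalate (DPeP) against those exposed to 100 mg/kg/d, over all expressed genes. Its members were the 5 libraries whose titles name the 300 mg/kg/d dose and the 3 libraries whose titles name the 100 mg/kg/d dose, 8 of the 17 libraries of the series. In both groups, wild type Sprague Dawley dams received DPeP, a phthalate ester used as a plasticizer, in corn oil (2.5 mL/kg) by oral gavage on gestational days 17 to 21, and fetal testes were collected on day 21. The 3 vehicle libraries, from dams given corn oil alone, are used for the level without DPeP. A library held 1 testis or a pool of testes from 1 litter, and the labels do not say if every library had a dam of its own. The p values therefore measure the spread between libraries, which may in part be technical. In whole testes, fewer cells of a type and less RNA per cell cannot be told apart.

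In the fetal testis, Leydig cells make testosterone from cholesterol and secrete insulin-like 3, both of which act in male reproductive tract development. Star brings cholesterol into the mitochondrion, Cyp11a1 cleaves its side chain, and Hsd3b and Cyp17a1 enzymes convert the product toward androgens. Phthalates with side chains of middle length are known in rats for lowering the expression of these genes in fetal Leydig cells. Both doses are in the upper part of the range tested here, so the comparison asks what the higher one adds.

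Of 30560 genes in the counts, 18005 passed a filter on low counts and were tested. Defining genes of testis cells had reads in all 8 libraries, with 97.8 to 297 CPM (reads of a gene scaled to 1e+06 gene counts in each library) for Insl3 of Leydig cells, 1774 to 3788 CPM for Amh of Sertoli cells and 57.8 to 118 CPM for Ddx4 of germ cells. The 8 libraries held between 14781634 gene counts, in replicate 19 at 100 mg/kg/d, and 20323488, in replicate 18 of that group. Two-sided exact permutation tests over the 56 arrangements, which allow no p under 0.0179, were used for measures of whole libraries. The share of counts from the mitochondrial genome was 5.50%, 5.44%, 5.15%, 5.14% and 5.78% for replicates 06, 07, 13, 14 and 20 at 300 mg/kg/d. It was 9.05%, 7.76% and 5.26% in replicates 05, 18 and 19 at 100 mg/kg/d, against 5.58% to 6.16% in vehicle libraries. At the lower doses it was 4.96% to 5.52% (11 mg/kg/d) and 4.35% to 5.26% (1 mg/kg/d). Ribosomal protein genes took 5.11% to 5.48% at 300 mg/kg/d, and 7.60%, 6.90% and 4.96% in replicates 05, 18 and 19. In vehicle libraries they took 4.61% to 5.47%. Replicates 05 and 18 were thus above every library at 300 mg/kg/d in both shares, while replicate 19 lay inside the range for the mitochondrial share and below it for the ribosomal share. The exact p was 0.0714 for the mitochondrial and 0.107 for the ribosomal share, and both were 0.196 when adjusted over 4 library measures.

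**Figure D1:**
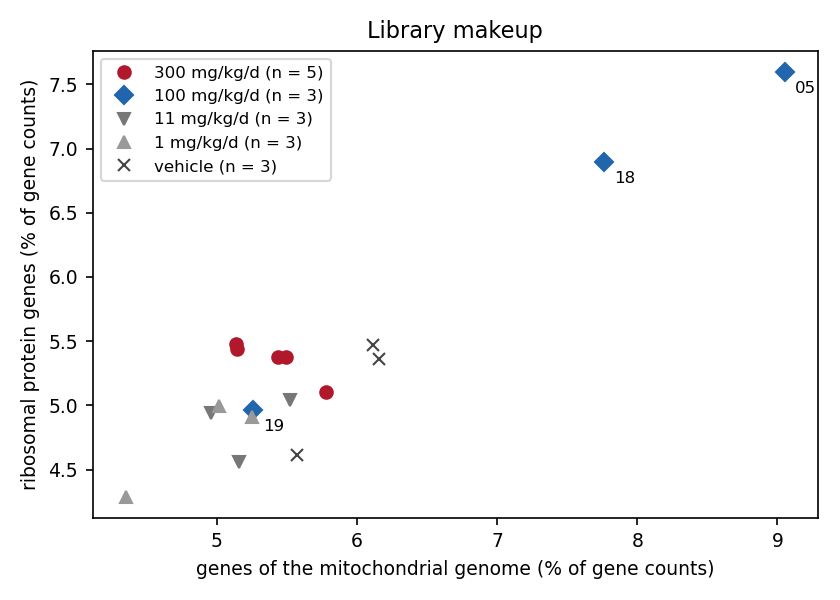
Share of gene counts from the mitochondrial genome (x axis, %) and from ribosomal protein genes (y axis, %), 1 point per library of the series, with the 3 libraries at 100 mg/kg/d labelled by replicate. Replicates 05 and 18 stand at 9.05% and 7.76% mitochondrial counts. Replicate 19, at 5.26% and 4.96%, lies inside the range at 300 mg/kg/d on the x axis and below it on the y axis.

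The same split ran through all genes tested. The median absolute log2 difference per gene between a pair of libraries was 0.15 to 0.21 among the 5 libraries at 300 mg/kg/d. Between these 5 and replicate 19 it was 0.17 to 0.21, between them and replicate 18 it was 0.27 to 0.32, and between them and replicate 05 it was 0.38 to 0.47. No pair agreed within sampling noise, as the chi-square per gene was at least 6.84. Replicate 19 was about as near to the libraries at 300 mg/kg/d as these were to each other. Distances to the vehicle libraries and to those at doses below 100 mg/kg/d were not computed. Whether the nearness of replicate 19 was particular to 300 mg/kg/d was therefore not tested. The median SD of log2 CPM was 0.17 at 300 mg/kg/d, 0.30 at 100 mg/kg/d and 0.17 in vehicle. In 7731 genes (42.9% of those tested), replicates 05 and 18 both lay on the same side outside the range at 300 mg/kg/d. Replicate 19 was on that side too in 1076 of them, inside the range in 4607 and on the other side in 2048. The part of the mitochondrial and ribosomal shares in the results was not tested. Fold changes of single genes are given below with all libraries and also without replicates 05 and 18. Without them, replicate 19 is the only library at its dose, and the fit takes its spread from the other groups.

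Of 18005 genes tested, 1 was called between the doses (0.00555%) at an adjusted p under 0.05 by edgeR's quasi-likelihood test, and it was higher at 300 mg/kg/d. It was Cpe, which encodes carboxypeptidase E, an enzyme that trims basic residues from prohormone and neuropeptide precursors in the secretory pathway. At an unadjusted p under 0.05, 4362 genes (24.2%) differed, of which 1789 (9.94%) were higher and 2573 (14.3%) lower at 300 mg/kg/d. At an adjusted p under 0.10, a threshold added after the data were seen, 1107 genes (6.15%) were called, 310 higher (1.72%) and 797 lower (4.43%). The 5 and 3 libraries did not overlap in 1076 genes (5.98%), with 607 higher (3.37%) and 469 lower (2.6%) at 300 mg/kg/d. Over all genes tested the median log2 fold change was -0.01. The number of called genes depended on the libraries and the tool. It was 5872 without replicate 19, and 0 without replicate 05 at 100 mg/kg/d, without replicates 05 and 18 together, or without replicate 14 or 20 at 300 mg/kg/d. It was 1379 with DESeq2 and 6571 with limma-voom and quality weights for libraries, which gave replicate 19 the lowest weight at its dose.

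Cpe (ENSRNOG00000043387, mRatBN7.2 chromosome 16, 25030276 to 25142233, plus strand) had 33.4, 31.8, 29.0, 37.5 and 36.8 CPM in replicates 06, 07, 13, 14 and 20 at 300 mg/kg/d. It had 14.7, 18.9 and 13.7 CPM in replicates 05, 18 and 19 at 100 mg/kg/d. All 5 libraries at 300 mg/kg/d were above all 3 at 100 mg/kg/d, and replicate 19 was the lowest of the 8. The means were 33.7 ± 3.53 CPM at 300 mg/kg/d (SD, n = 5) and 15.8 ± 2.75 CPM at 100 mg/kg/d (SD, n = 3), a 2.13-fold rise with a log2 fold change of 1.09 (SE 0.154, edgeR adjusted p = 0.0143).

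Across the doses, Cpe had 11.9, 12.1 and 12.9 CPM in vehicle libraries, 13.0, 16.8 and 11.9 CPM at 1 mg/kg/d, and 15.7, 10.9 and 10.3 CPM at 11 mg/kg/d. The libraries at 100 mg/kg/d were thus near those at the lower doses, and those at 300 mg/kg/d stood above all other libraries of the series. Against the same 3 vehicle libraries, 2.4% of all genes were called at 300 mg/kg/d and 1.52% at 100 mg/kg/d. The Cpe log2 fold change was 1.46 at 300 mg/kg/d (edgeR adjusted p = 1.09e-05) and 0.36 at 100 mg/kg/d (edgeR adjusted p = 0.258). The titles carry a code whose meaning is not given. S447 holds 2 libraries of each dose, with replicates 05 and 19 at 100 mg/kg/d. S448 holds 3 at 300 mg/kg/d and 1, replicate 18, at 100 mg/kg/d. The log2 difference between 300 and 100 mg/kg/d was 1.09 under S447 and 0.92 under S448. Without replicates 05 and 18 it was 1.30, with an edgeR adjusted p of 0.162. The call was also lost in the fit of the 8 libraries alone (0.0657), with the title code in the fit (0.0626), and without replicate 14 (0.0612) or 20 (0.0618) at 300 mg/kg/d or replicate 05 (0.0968) at 100 mg/kg/d.

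**Figure D2:**
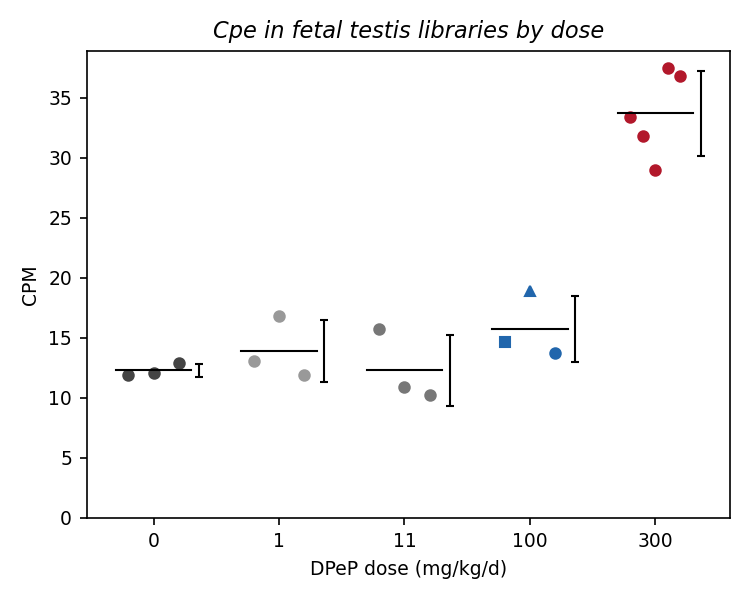
Cpe level in CPM (y axis) by DPeP dose in mg/kg/d (x axis, 0 is vehicle), 1 point per library, with the group mean as a line and the SD as a bar. The 5 libraries at 300 mg/kg/d lie between 29.0 and 37.5 CPM, above the 3 at 100 mg/kg/d at 13.7 to 18.9 CPM (square 05, triangle 18, circle 19).

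The promoter of Cpe is shown because it is the only called gene, beside that of Amh, which encodes the anti-Müllerian hormone of Sertoli cells and was the only gene of the 16-gene panel described next with a match to the site of steroidogenic factor 1. The windows run from 250 bases before to 50 bases after the RefSeq gene start on the build GRCr8, at chr16:29796457-29796756 on the plus strand and chr7:9559818-9560117 on the minus strand, and capitals mark that site.
Cpe: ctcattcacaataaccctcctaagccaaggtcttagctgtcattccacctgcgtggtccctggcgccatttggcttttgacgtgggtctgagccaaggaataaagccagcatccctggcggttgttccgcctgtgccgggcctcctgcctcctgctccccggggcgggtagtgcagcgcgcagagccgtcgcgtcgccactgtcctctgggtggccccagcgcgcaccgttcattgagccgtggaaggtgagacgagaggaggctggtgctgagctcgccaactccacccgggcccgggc
Amh: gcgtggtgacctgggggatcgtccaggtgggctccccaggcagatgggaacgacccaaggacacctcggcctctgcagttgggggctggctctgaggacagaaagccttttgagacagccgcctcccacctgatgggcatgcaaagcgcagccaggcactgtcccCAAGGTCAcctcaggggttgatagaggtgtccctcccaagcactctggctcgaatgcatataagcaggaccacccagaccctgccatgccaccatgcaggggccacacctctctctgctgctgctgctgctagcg
The letters CAAGGTCA, searched on both strands, were in 445 of 27457 genes of the table (1.62%), and those of the sterol regulatory element, TCACNCCAC, in 344 (1.25%). Of the 10 panel genes with an entry, Amh held the first and Dazl the second. None of the 17 matched genes among the 20 with the smallest p held either. RefSeq promoters matched 61 of 84 named genes, and Star, Cyp17a1 and Mrap were not among them.

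Star, Cyp11a1 and Cyp17a1, which act at early steps of androgen synthesis, had lower levels at 300 than at 100 mg/kg/d with no overlap between libraries. None passed the edgeR test. DESeq2 and limma-voom with library quality weights called each of them, in runs that called 12.9% and 36.5% of the genes they tested. Of the panel of 16 testis genes, 6 were lower without overlap (Star, Cyp11a1, Cyp17a1, Fdx1, Mrap and Ddx4), none was higher without overlap, and none was called. Over all genes, 2.6% were lower without overlap.

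Star (ENSRNOG00000015052, chromosome 16, 66264807 to 66271672), which moves cholesterol into mitochondria, had 165, 176, 114, 191 and 96.0 CPM in replicates 06, 07, 13, 14 and 20 at 300 mg/kg/d. It had 252, 209 and 222 CPM in replicates 05, 18 and 19 at 100 mg/kg/d. Each library at 300 mg/kg/d was below each at 100 mg/kg/d, where the 3 libraries were close together. The log2 fold change was -0.62 (SE 0.183, edgeR adjusted p = 0.0910) and -0.58 without replicates 05 and 18. Vehicle libraries had 549 to 688 CPM, and both doses were called lower than the same vehicle libraries, with log2 fold changes of -2.09 at 300 mg/kg/d and -1.47 at 100 mg/kg/d.

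Cyp11a1 (ENSRNOG00000008074, chromosome 8, 58404669 to 58434338), the side chain cleavage enzyme, had 304, 303, 287, 292 and 215 CPM in replicates 06, 07, 13, 14 and 20 at 300 mg/kg/d. It had 408, 380 and 429 CPM in replicates 05, 18 and 19 at 100 mg/kg/d. Here replicate 20 was well below the other 4 libraries at 300 mg/kg/d, and the groups did not overlap. The log2 fold change was -0.53 (SE 0.152, edgeR adjusted p = 0.0899), and -0.61 without replicates 05 and 18. Vehicle libraries had 618 to 1078 CPM, and against them the log2 fold change was -1.71 at 300 mg/kg/d and -1.17 at 100 mg/kg/d.

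Cyp17a1 (ENSRNOG00000020035, chromosome 1, 245535462 to 245541573), whose product makes the androgen precursors, had 417, 408, 281, 394 and 235 CPM in replicates 06, 07, 13, 14 and 20 at 300 mg/kg/d. It had 772, 618 and 519 CPM in replicates 05, 18 and 19 at 100 mg/kg/d. The groups did not overlap, and replicate 19 was the nearest to the higher dose. The log2 fold change was -0.87 (SE 0.178, edgeR adjusted p = 0.0837) and -0.57 without replicates 05 and 18. Vehicle libraries had 1286 to 1641 CPM, and against them the log2 fold change was -2.12 at 300 mg/kg/d and -1.24 at 100 mg/kg/d.

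Fdx1, the ferredoxin that passes electrons to Cyp11a1, had 56.1, 55.1, 47.5, 65.7 and 38.2 CPM at 300 mg/kg/d and 73.3, 94.4 and 69.1 CPM at 100 mg/kg/d in the same order of replicates. Its log2 fold change was -0.59 (SE 0.175, edgeR adjusted p = 0.0911) and -0.39 without replicates 05 and 18. Mrap, the accessory protein of the adrenocorticotropin receptor, had 1.21, 1.92, 1.17, 1.67 and 0.957 CPM at 300 mg/kg/d and 2.28, 2.42 and 2.82 CPM at 100 mg/kg/d. Its 3 libraries at 100 mg/kg/d were close together, against 12.1 to 15.0 CPM in vehicle. It had a log2 fold change of -0.85 (SE 0.215, edgeR adjusted p = 0.0837) and -1.01 without replicates 05 and 18. For Star, Cyp11a1, Cyp17a1, Fdx1 and Mrap, the difference between the doses was negative under each title code. The lack of overlap already implies this sign, so it is no separate check. With all libraries, DESeq2 gave adjusted p of 0.0275 for Star, 0.0250 for Cyp11a1, 0.00207 for Cyp17a1 and 0.0299 for Fdx1, and none for Mrap. With limma-voom and quality weights, the adjusted p were 0.0150, 0.0139, 0.000439, 0.000718 and 0.0154 for the 5 genes in that order. Without replicate 19 all 5 of these genes were called, in a fit that called 5872 of 18316 genes (32.1%), with edgeR adjusted p of 0.0217 for Star, 0.0308 for Cyp11a1, 0.000570 for Cyp17a1, 0.0110 for Fdx1 and 0.0223 for Mrap. Without replicates 05 and 18 none was, with an edgeR adjusted p of 0.982 for each.

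**Figure D3:**
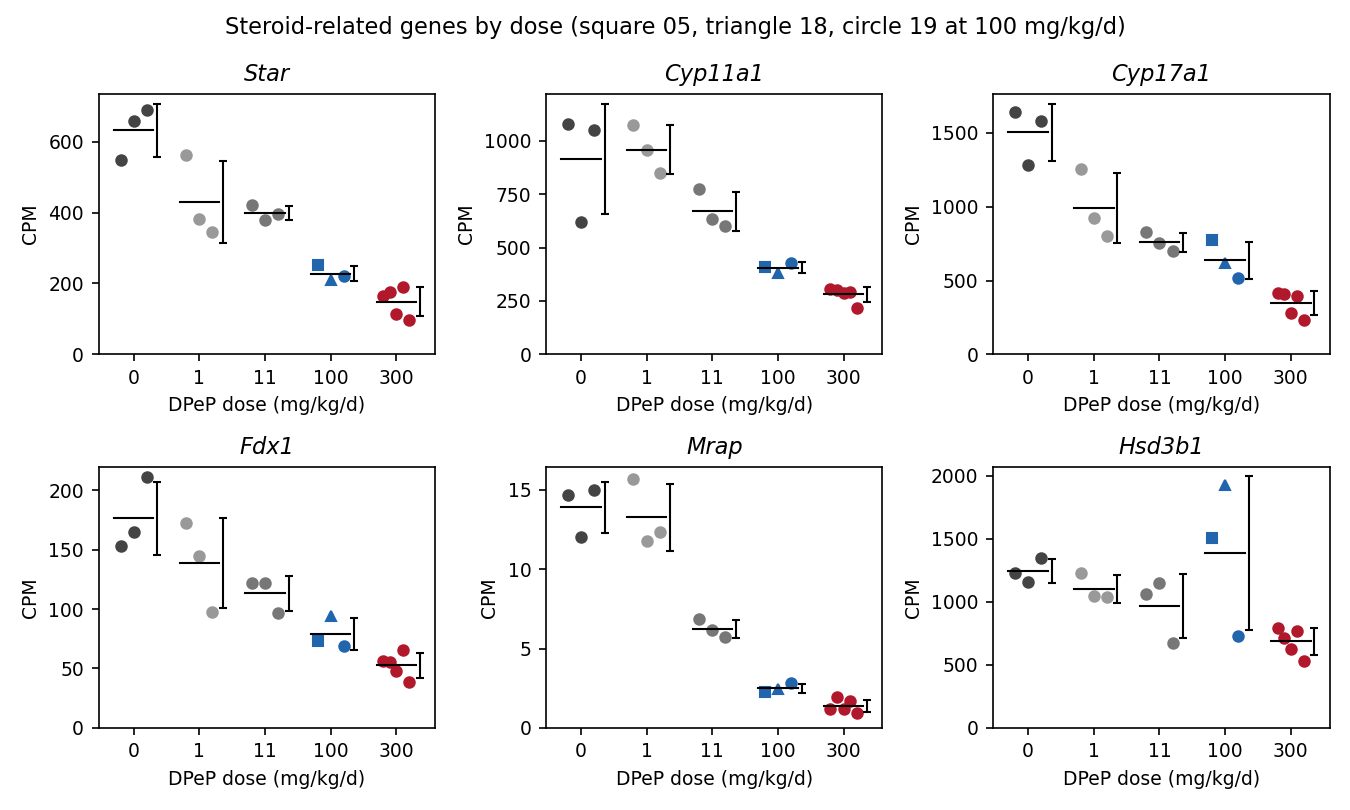
Levels in CPM (y axis) of 6 steroid-related genes by DPeP dose in mg/kg/d (x axis, 0 is vehicle), 1 point per library, with group means as lines and SD as bars. Star, Cyp11a1, Cyp17a1, Fdx1 and Mrap are lower in all 5 libraries at 300 mg/kg/d than in the 3 at 100 mg/kg/d, while for Hsd3b1 replicate 19 at 726 CPM lies among the libraries at 300 mg/kg/d and replicates 05 and 18 reach 1507 and 1926 CPM.

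Hsd3b1, the 3-beta-hydroxysteroid dehydrogenase between Cyp11a1 and Cyp17a1 in the route, differed from these genes in its pattern at 100 mg/kg/d. It had 790, 711, 628, 764 and 533 CPM in replicates 06, 07, 13, 14 and 20 at 300 mg/kg/d. It had 1507, 1926 and 726 CPM in replicates 05, 18 and 19 at 100 mg/kg/d, so that the groups overlapped through replicate 19. Its log2 fold change of -1.02 (SE 0.214, edgeR adjusted p = 0.0837) was -0.08 without replicates 05 and 18. Hsd3b3, a close copy, had 56.9 to 81.4 CPM at 300 mg/kg/d and 152, 241 and 72.7 CPM in replicates 05, 18 and 19, with log2 fold changes of -1.16 with all 3 and -0.06 with replicate 19 alone. The 2 copies may share reads, so their split is uncertain.

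Other panel genes of Leydig cells or of androgen synthesis overlapped between the doses. Insl3, the hormone of testis descent, had 179, 121, 240, 204 and 97.8 CPM at 300 mg/kg/d and 297, 178 and 203 CPM at 100 mg/kg/d, with a log2 fold change of -0.42 (SE 0.239, edgeR adjusted p = 0.277) and -0.26 without replicates 05 and 18. Its annotation overlaps exons of 2 other genes, and the kit does not mark strand. Lhcgr, the luteinizing hormone receptor, had 26.1 to 42.7 CPM at 300 mg/kg/d and 34.6, 27.1 and 63.3 CPM in replicates 05, 18 and 19, with a log2 fold change of -0.35 (SE 0.215) and -0.94 without replicates 05 and 18. The high value of Lhcgr at 100 mg/kg/d was in replicate 19, and without that library the difference was 0.09. Scarb1, the receptor that takes up cholesterol from lipoproteins, had a log2 fold change of -0.32 (SE 0.172) and -0.52 without replicates 05 and 18. Hsd17b3, which makes testosterone and is not in the Leydig cell list used below, had -0.20 (SE 0.154), and 0.43 without replicates 05 and 18. Its means were 94.4 CPM in vehicle, 128 CPM at 100 mg/kg/d and 112 CPM at 300 mg/kg/d.

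Nr5a1, the steroidogenic factor 1 that drives many of these genes, had 165 to 233 CPM at 300 mg/kg/d and 142, 167 and 185 CPM at 100 mg/kg/d, with a log2 fold change of 0.19 (SE 0.118) and 0.03 without replicates 05 and 18. Cyp11b1, the 11-beta-hydroxylase known from the adrenal cortex, had 1.15, 0.845, 0.175, 0.461 and 0.282 CPM at 300 mg/kg/d and 2.59, 2.83 and 1.11 CPM at 100 mg/kg/d. Replicate 19 lay just below the highest library at 300 mg/kg/d, and the log2 fold change was -1.91 (SE 0.436, edgeR adjusted p = 0.0837) and -0.93 without replicates 05 and 18.

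Of 15 androgen synthesis genes tested, none was called, and 4 were lower and none higher without overlap (26.7%, against 5.98% of all genes in either direction). Of the 15, 6 had positive and 9 negative log2 fold changes, and the median was -0.20, and -0.08 without replicates 05 and 18. Of 22 Leydig cell markers, 1 was called higher (Cpe), and without overlap 1 was higher and 4 were lower (22.7%, against 5.98% of all genes). Their log2 fold changes were positive in 9 and negative in 13, with a median of -0.33, and 0.01 without replicates 05 and 18. The 4 lower markers were Star, Cyp11a1, Cyp17a1 and Fdx1, already counted in the panel. Lists can share genes, so these counts are not separate results. Of 6 genes of adrenal type, 3 were tested (Cyp11b1, Mrap and Akr1b7) and none was called. Only Mrap, already counted in the panel, was lower without overlap (33.3%, against 5.98% of all genes in either direction and 2.6% lower).

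Of 23 cholesterol synthesis genes tested, none was called and none was free of overlap. The median log2 fold change was -0.29, but 0.05 without replicates 05 and 18. Idi1, the isopentenyl diphosphate isomerase, had 78.4, 61.2, 39.0, 49.0 and 59.3 CPM at 300 mg/kg/d and 130, 139 and 43.5 CPM in replicates 05, 18 and 19. Its log2 fold change was -0.86 (SE 0.255, edgeR adjusted p = 0.0910), and 0.41 without replicates 05 and 18. Among 20 genes of cholesterol uptake and transport, none was called and 2 (10%) were higher without overlap, against 3.37% of all genes, among them Stard3, a cholesterol transporter of late endosomes, with a log2 fold change of 0.37 (SE 0.105) and 0.17 without replicates 05 and 18. In 12 fatty acid synthesis genes, none was called and 2 (16.7%, against the same 3.37%) were higher without overlap. They were Fasn, the fatty acid synthase, and Srebf1, a transcription factor of lipid synthesis, with log2 fold changes of 0.46 and 0.39, and 0.19 and 0.17 without replicates 05 and 18.

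The 20 genes with the smallest p, with a symbol and a mean of at least 1 CPM, include Cpe and 19 genes with an edgeR adjusted p of 0.0837. They were chosen by this contrast, so they describe it and test nothing. Of the 20, 5 were higher at 300 mg/kg/d, all without overlap, and 15 lower, 10 of them without overlap.

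The other 4 that were higher were Trim2, a ubiquitin ligase, Man2a1, a Golgi mannosidase of N-glycan processing, Aldh4a1, an enzyme of proline breakdown in mitochondria, and Hspb1, a small heat shock protein. Trim2 had 156, 157, 195, 178 and 162 CPM at 300 mg/kg/d and 117, 119 and 132 CPM at 100 mg/kg/d. Man2a1 had 328, 336, 343, 370 and 366 CPM at 300 mg/kg/d and 208, 272 and 267 CPM at 100 mg/kg/d. Aldh4a1 had 172, 176, 214, 185 and 174 CPM at 300 mg/kg/d and 108, 140 and 131 CPM at 100 mg/kg/d. These were narrow gaps between tight groups, with log2 fold changes of 0.47 (SE 0.0898), 0.49 (SE 0.0930) and 0.54 (SE 0.104), and without replicates 05 and 18 they were 0.37, 0.39 and 0.50. Hspb1 had 31.6, 24.2, 23.2, 30.9 and 28.9 CPM at 300 mg/kg/d and 16.9, 17.2 and 18.0 CPM at 100 mg/kg/d, with a log2 fold change of 0.67 (SE 0.137) and 0.63 without replicates 05 and 18. The vehicle libraries, at 19.4, 28.4 and 26.6 CPM, were above the libraries at 100 mg/kg/d. Trim2 and Aldh4a1 were called higher than vehicle at 300 mg/kg/d, with log2 fold changes of 0.52 (edgeR adjusted p = 0.00209) and 0.57 (edgeR adjusted p = 0.00334), and had 0.05 and 0.03 at 100 mg/kg/d.

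Among the lower genes, Ephx1, the microsomal epoxide hydrolase, had 58.0, 48.6, 45.7, 60.0 and 38.3 CPM at 300 mg/kg/d and 154, 94.1 and 73.9 CPM at 100 mg/kg/d. Its groups were apart, its log2 fold change was -1.10 (SE 0.189) and it was -0.55 without replicates 05 and 18. Lyz2, a lysozyme of phagocytes, had 52.6, 47.6, 43.3, 53.9 and 39.8 CPM at 300 mg/kg/d and 104, 74.9 and 71.2 CPM at 100 mg/kg/d, with a log2 fold change of -0.81 (SE 0.148) and -0.58 without replicates 05 and 18. For these 2 genes all 3 libraries at 100 mg/kg/d were clear of the higher dose.

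Other genes of the 20 rested more on replicates 05 and 18. Ppih, a cyclophilin of the spliceosome, had 44.0 to 47.6 CPM at 300 mg/kg/d and 92.4, 84.4 and 50.8 CPM in replicates 05, 18 and 19, with log2 fold changes of -0.74 and, without replicates 05 and 18, -0.15. Gsta1, a glutathione transferase with close paralogs that may share its reads, had 123 to 157 CPM at 300 mg/kg/d and 320, 331 and 154 CPM in replicates 05, 18 and 19. Gsta1 overlapped between the doses, and its log2 fold change of -0.90 was -0.08 without replicates 05 and 18. Dppa4, a pluripotency-associated gene of germ cells, had 113 to 128 CPM at 300 mg/kg/d and 209, 213 and 130 CPM in replicates 05, 18 and 19, with log2 fold changes of -0.59 and, without replicates 05 and 18, -0.08.

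Olr1694 and Svs5 rested on single libraries or varied widely. Olr1694, an olfactory receptor gene of a large family, had 33.2 CPM in replicate 18 and 0.525 to 1.36 CPM in the other 7 libraries. Its log2 fold change of -3.59 (SE 0.745) was 0.04 without replicate 18 and 0.89 without replicates 05 and 18. Svs5, a seminal vesicle secretory protein gene, had 19.9, 12.3, 3.69, 11.2 and 5.01 CPM at 300 mg/kg/d and 35.6, 79.8 and 17.8 CPM at 100 mg/kg/d, against 127 to 268 CPM in vehicle. The doses overlapped, and its log2 fold change was -2.10 (SE 0.442), or -0.77 without replicates 05 and 18. Of the 20, 19 kept their sign without replicates 05 and 18, and 5 were then within 0.2 of no difference on the log2 scale. All 20 kept it under both title codes. At 100 mg/kg/d these hold replicates 05 and 19 (S447) and replicate 18 alone (S448). The genes were chosen from these same libraries, so their sign under each code is no separate check.

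**Figure D4:**
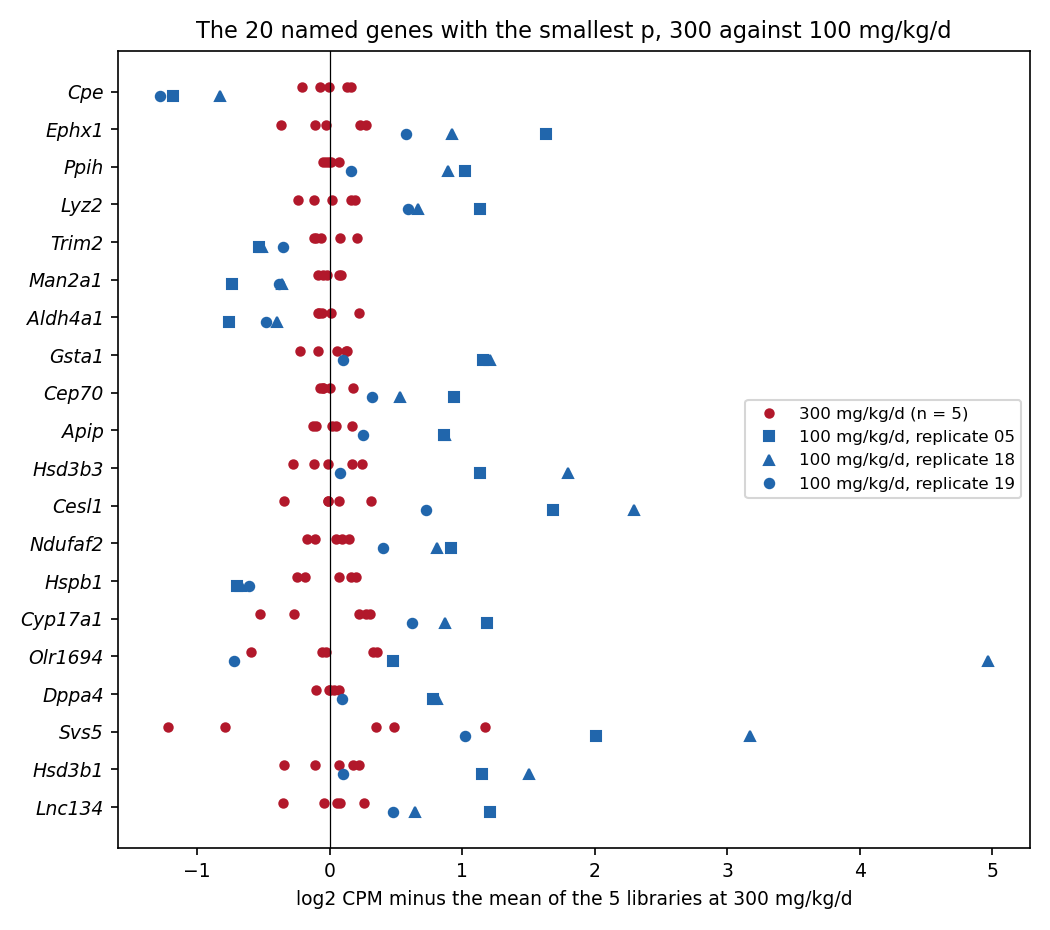
For the 20 genes with the smallest p, the log2 CPM of each library minus the mean of the 5 libraries at 300 mg/kg/d (x axis), with genes down the page in order of p. Replicates at 100 mg/kg/d have a symbol each: for Cpe all 3 lie to the left of the 5 libraries at 300 mg/kg/d, and for Hsd3b1, Hsd3b3 and Gsta1 replicate 19 lies among them.

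Of 26 Sertoli cell genes tested, none was called, 3 were higher and none lower without overlap (11.5%, against 5.98% of all genes), and the median log2 fold change was 0.22, and 0.20 without replicates 05 and 18. The 3 were Sox8, a transcription factor of Sertoli cells, Clu, a secreted chaperone, and Tf, the iron carrier transferrin. Sox8 had 34.6, 39.9, 40.6, 33.1 and 38.8 CPM at 300 mg/kg/d and 18.2, 24.6 and 32.4 CPM at 100 mg/kg/d, a log2 fold change of 0.58 (SE 0.148, edgeR adjusted p = 0.0837) and 0.21 without replicates 05 and 18. Clu had 127, 154, 156, 187 and 154 CPM at 300 mg/kg/d and 87.3, 108 and 118 CPM at 100 mg/kg/d, a log2 fold change of 0.58 (SE 0.149) and 0.41 without replicates 05 and 18. Tf had 121 to 157 CPM at 300 mg/kg/d and 99.5, 107 and 106 CPM at 100 mg/kg/d, a log2 fold change of 0.44 (SE 0.115) and 0.42 without replicates 05 and 18. Sox8 and Clu were called higher at 300 mg/kg/d than in vehicle, with log2 fold changes of 0.84 each, while at 100 mg/kg/d both were at 0.26 against the same libraries.

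Amh had 2008, 2021, 3788, 2945 and 1908 CPM at 300 mg/kg/d and 1811, 1989 and 1774 CPM at 100 mg/kg/d. Its groups overlapped and replicate 13 was the highest of the 8, with a log2 fold change of 0.45 (SE 0.184, edgeR adjusted p = 0.151) and 0.52 without replicates 05 and 18. Its receptor gene Amhr2 had 50.2, 52.0, 68.3, 66.8 and 51.1 CPM at 300 mg/kg/d and 41.4, 42.4 and 39.2 CPM at 100 mg/kg/d. These did not overlap, and the log2 fold change of 0.49 (SE 0.158, edgeR adjusted p = 0.0986) was 0.57 without replicates 05 and 18. Sox9, a transcription factor that drives Sertoli cell differentiation, had a log2 fold change of 0.31 (SE 0.180), and -0.12 without replicates 05 and 18.

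Of 33 germ cell genes tested, none was called, and 5 were lower and none higher without overlap (15.2%, against 5.98% of all genes in either direction and 2.6% lower). The median log2 fold change was -0.21, and -0.14 without replicates 05 and 18. Ddx4, an RNA helicase of germ cells, had 58.3, 59.6, 57.8, 67.5 and 64.4 CPM at 300 mg/kg/d and 94.8, 118 and 68.2 CPM at 100 mg/kg/d, a log2 fold change of -0.61 (SE 0.165, edgeR adjusted p = 0.0899) and -0.14 without replicates 05 and 18. Dazl, an RNA-binding protein of germ cells, had 27.6 to 37.2 CPM at 300 mg/kg/d and 54.3, 46.6 and 36.2 CPM in replicates 05, 18 and 19, a log2 fold change of -0.52 (SE 0.141) and -0.17 without replicates 05 and 18. The vehicle libraries had 52.0 to 69.9 CPM of Ddx4 and 23.0 to 28.7 CPM of Dazl. In both genes replicate 19 was at or beside the top of the libraries at 300 mg/kg/d.

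Of 23 collagen and matrix genes, none was called, 5 were higher and none lower without overlap (21.7%, against 5.98% of all genes in either direction and 3.37% higher). The median log2 fold change was 0.33, and 0.09 without replicates 05 and 18. Col18a1, a basement membrane collagen, had 649, 679, 990, 867 and 765 CPM at 300 mg/kg/d and 410, 641 and 570 CPM at 100 mg/kg/d, a log2 fold change of 0.55 (SE 0.147) and 0.48 without replicates 05 and 18. Nid2, a nidogen of basement membranes, had 308 to 423 CPM at 300 mg/kg/d and 184, 248 and 329 CPM in replicates 05, 18 and 19. The groups overlapped through replicate 19, and the log2 fold change of Nid2 was 0.59 (SE 0.143) and 0.22 without replicates 05 and 18. All 14 peritubular myoid genes had a positive log2 fold change, with a median of 0.39, and 0.14 without replicates 05 and 18, and none was called or free of overlap. For 17 endothelial genes the median of 0.31 was -0.14 without replicates 05 and 18, and for 10 hedgehog pathway genes, all positive, the median of 0.32 was 0.00.

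Markers of cells and tissues other than these varied among libraries. The 16 red blood cell genes tested all had negative log2 fold changes, with a median of -0.57, and -0.50 without replicates 05 and 18. Their summed level was 6211 to 14954 CPM at 300 mg/kg/d and 11618 to 17013 CPM at 100 mg/kg/d, so the groups overlapped, and their part in the other results was not tested. Alas2, the first enzyme of heme synthesis in red cells, was lower without overlap, with 76.9 to 140 CPM at 300 mg/kg/d and 143, 171 and 184 CPM at 100 mg/kg/d, a log2 fold change of -0.64 (SE 0.203) and -0.78 without replicates 05 and 18. Macrophage markers summed to 144 to 171 CPM at 300 mg/kg/d and 159 to 194 CPM at 100 mg/kg/d, and none of 16 was called or free of overlap. Erbb3, a neuregulin receptor in the list of neural crest and Schwann cells, had 89.6, 123, 152, 139 and 121 CPM at 300 mg/kg/d and 49.7, 80.7 and 86.4 CPM at 100 mg/kg/d, a log2 fold change of 0.79 (SE 0.211, edgeR adjusted p = 0.0899) and 0.54 without replicates 05 and 18. Chga, the chromogranin A of secretory granules in the same list, had 5.45, 3.60, 5.62, 4.44 and 3.89 CPM at 300 mg/kg/d and 9.92, 5.71 and 9.97 CPM at 100 mg/kg/d, a log2 fold change of -0.89 (SE 0.315, edgeR adjusted p = 0.115) and -1.11 without replicates 05 and 18. Of the 8 genes of that list, none was called, 1 was higher and 1 lower without overlap (25%, against 5.98% of all genes), 3 had positive and 5 negative log2 fold changes, and the median was -0.12. The 13 liver plasma protein genes summed to 349 CPM in replicate 07 and 160 to 183 CPM in the other libraries at 300 mg/kg/d, and to 144 to 151 CPM at 100 mg/kg/d. These sums include Tf, already described with the Sertoli cell genes. Tf had 121 to 157 CPM at 300 mg/kg/d and 99.5 to 107 CPM at 100 mg/kg/d.

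All 30 genes of the mitochondrial genome tested had negative log2 fold changes, with a median of -0.57, and 0.07 without replicates 05 and 18. Of 91 ribosomal protein genes, 83 were negative, with a median of -0.38, and 0.16 without replicates 05 and 18. No gene of either list was called. Without overlap, 1 gene of the mitochondrial genome was lower (3.33%, against 2.6% of all genes). It was AY172581.22, of 69 bases, with low means of 0.629 CPM at 300 mg/kg/d and 2.70 CPM at 100 mg/kg/d. In 25 cell cycle, 21 p53 and cell death, 21 immediate early, 24 hypoxia and glycolysis and 18 heat shock and unfolded protein genes, none was called, and their medians lay between -0.05 and 0.19. In 20 interstitial fibroblast, 17 activin, nodal and anti-Müllerian pathway, 13 steroid receptor, 26 fatty acid oxidation, 15 mesonephric duct and 8 surface epithelium genes, none was called either, and their medians lay between -0.20 and 0.23. The 22 oxidative stress genes had a median of -0.23, and 0.05 without replicates 05 and 18. None was called, and without overlap 2 were higher and 1 lower (13.6%, against 5.98% of all genes). Also without overlap, 3 fatty acid oxidation genes (11.5%) and 2 heat shock and unfolded protein genes (11.1%) were higher and none lower. The share was 0% to 7.69% in the other lists of this paragraph.

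**Figure D5:**
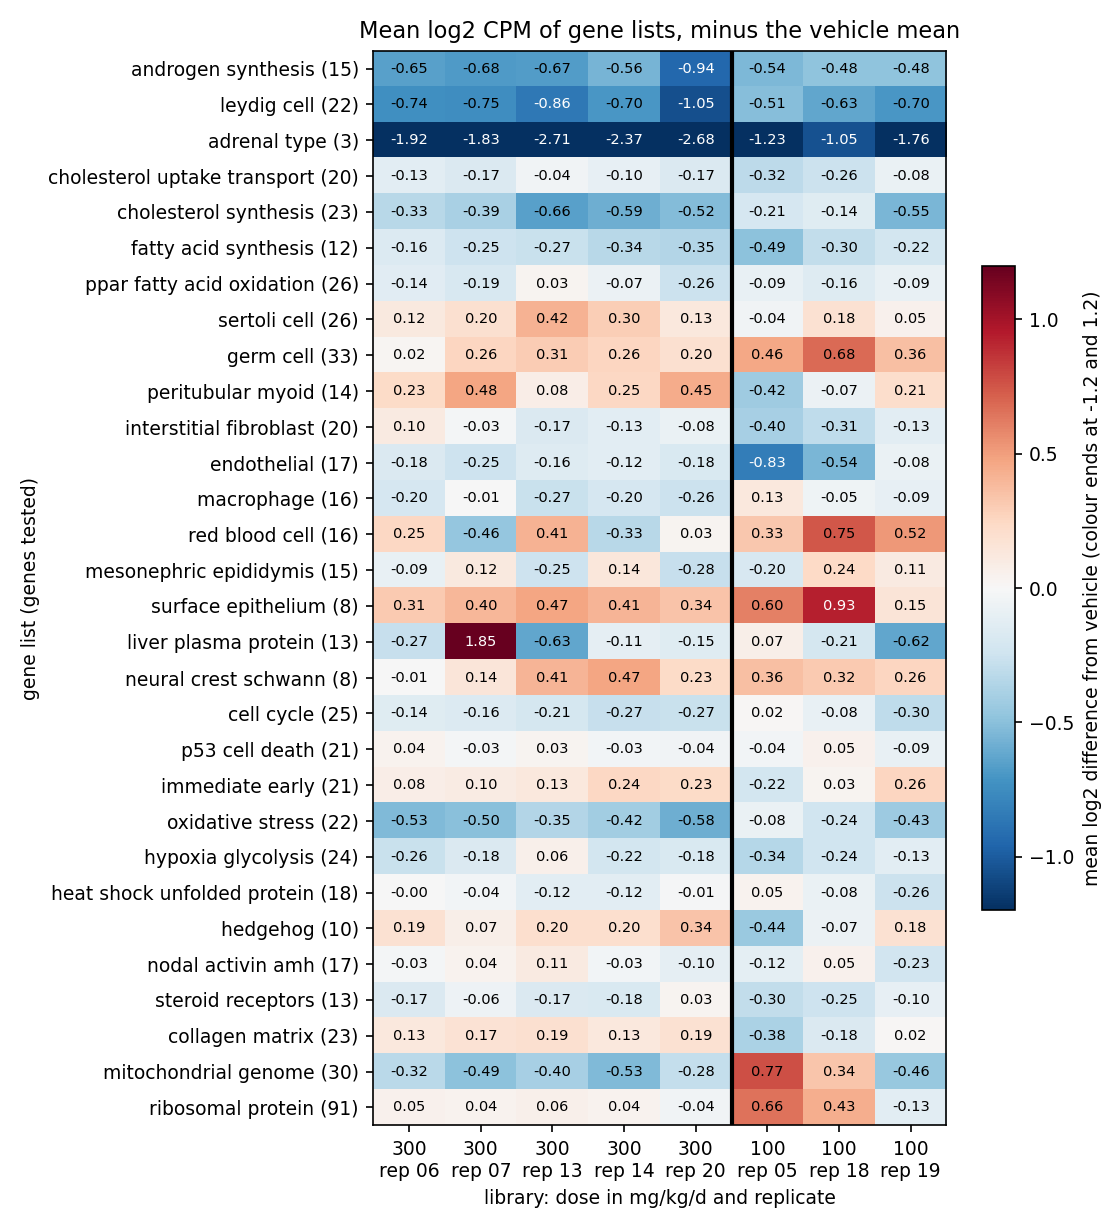
Mean log2 CPM of each gene list minus its vehicle mean, for the 5 libraries at 300 mg/kg/d (left of the line) and the 3 at 100 mg/kg/d (right), with the number of genes tested in brackets and colours that end at -1.2 and 1.2. The androgen synthesis list is at -0.94 to -0.56 at 300 mg/kg/d and -0.54 to -0.48 at 100 mg/kg/d, while in the mitochondrial, ribosomal and endothelial lists replicates 05 and 18 differ from replicate 19 and from the higher dose.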

How the data were processed

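PolyA RNA of fetal rat testes was sequenced in 17 libraries. The NEBNext Ultra II kit used does not mark strand. The submitters' processing notes name Trimmomatic 0.36, STAR 2.5.2b, featureCounts of Subread 1.5.2 and the build mRatBN7.2. For the gene models and the strand setting, the release and value are not given in the sources used. The deposited values used are raw counts per gene, per the file headers. The deposited TPM and log2 tables were not used here.

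Each of 30652 identifiers was kept once and 92 ERCC spike-in rows were left out, which left 30560 genes. The quasi-likelihood test of edgeR 4.0.16 in R 4.3.3 was run with TMM scaling and filterByExpr by dose group, in 1 fit of all 17 libraries that share 1 estimate of spread. It tested 18005 genes, and p values were adjusted by Benjamini-Hochberg over all of them, called under 0.05. CPM use TMM-scaled totals, and log2 CPM a prior count of 2. Standard errors come from the log2 fold change divided by the root of its F value. No overlap means that the lowest CPM of 1 group is above the highest of the other. DESeq2 1.42.0 and limma 3.58.1 were run as alternatives, with other scalings and filters, and each of the 8 libraries at 300 and 100 mg/kg/d was left out in turn, as were replicates 05 and 18 together. The tests were checked on simulated counts.

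The members, the 30 gene lists and the named genes were chosen with earlier results of these data known. Named were a panel of 16 genes, all called genes with a symbol, the 20 genes with a symbol, a mean of at least 1 CPM and the smallest p, and from each list up to 4 called genes or else the 2 with the smallest p. Not all are described. The lists held 688 entries, of which 636 matched, and a symbol can have several gene identifiers. Promoters are those of RefSeq on GRCr8, while gene coordinates are those of the files on mRatBN7.2.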

Additional observations from a re-analysis of the deposited data

Results flagged for a closer look

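In groups of 4 to 10 libraries, a value far from the others was looked for in 84 named genes and 4 library measures, 88 in all, among the 5 libraries at 300 mg/kg/d. By Dixon's 95% criterion, which chance passes in about 1 of 20 groups, 6 stood out. Alb, the serum albumin gene of liver, had 89.95 CPM in replicate 07 and 0.1755 to 2.196 CPM in the other 4 libraries at 300 mg/kg/d. Cyp11a1 had 215.3 CPM in replicate 20, below the 287.4 to 303.9 CPM of the others. Cep70, a centrosomal protein gene, had 24.16 CPM in replicate 07, above 20.33 to 21.42 CPM. Hbb-bs, a beta-globin gene with close copies, had 5.089 CPM in replicate 13, above 2.366 to 3.147 CPM. Rpl22l1, a ribosomal protein paralog, had 132.3 CPM in replicate 06, above 125.7 to 127 CPM. The ribosomal protein share was 5.107% in replicate 20, below 5.377% to 5.477% in the others.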

How the results depend on the processing

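The count of called genes, 1 of 18005, was the same with DESeq2 size factors, upper-quartile scaling, a filter of at least 1 CPM in at least 3 libraries, and without mitochondrial and ribosomal protein genes. It was 1379 with DESeq2 (574 higher and 805 lower of 10686 with an adjusted p), 6571 with limma-voom and library quality weights, and 225 with no filter. It was 0 with 8 libraries only (3100 genes at an unadjusted p under 0.05), 0 with the title code in the fit (4146) and 0 without replicates 05 and 18 (895). Leaving out 1 library gave 0 to 5872 calls: 5872 without replicate 19 at 100 mg/kg/d (2860 higher, 3012 lower), and 0 without replicate 14 or 20 at 300 mg/kg/d or replicate 05 at 100 mg/kg/d. The quality weights were 3.35 for replicate 18, 0.353 for replicate 05 and 0.203 for replicate 19. The causes were not tested. Counts were 1107 at an adjusted p under 0.10 and 4362 at an unadjusted p under 0.05, both added after seeing the data. Cpe was called in 12 of 18 alternatives. Leaving out 1 library moved the difference in mitochondrial share between -3.01 and -1.11 percentage points, in ribosomal share between -1.89 and -0.573, in genes detected between -286.7 and -137.7, and in the correlation of log2 CPM with log2 exon length between 0.00814 and 0.0437. Without replicate 19 the exact p, not adjusted, was 0.0476 for the shares and that correlation, the smallest that the libraries left allow. Replicate 19 differed from replicates 05 and 18 in these same measures, so leaving it out gives no separate test. Of 84 named genes, 16 changed sign somewhere. Without replicates 05 and 18 the log2 fold change was 0.10 for Bnip3, 0.11 for Bub1, 0.0751 for Fabp3, 0.0817 for Hadhb, 0.43 for Hsd17b3, 0.0767 for Hsp90aa1, 0.41 for Idi1 and 0.0396 for Mt2A. It was 0.0025 for Nr0b1, 0.89 for Olr1694, 0.16 for Pcna, 0.0506 for Pmvk, 0.23 for Prdx1, 0.14 for Rpl22l1 and -0.12 for Sox9. Lhcgr was at 0.15 with quality weights and, with 1 library left out, at -0.575 (replicate 18) to 0.0900 (replicate 19). Olr1694 was at -4.15 (without replicate 19) to 0.0412 (without replicate 18). No paired analysis was made, because the labels name no pairs of libraries. Each replicate number occurs once in the series. The title code, present in both groups, was used only in the fit named above.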

Other observations

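Some genes with larger differences and no overlap, chosen after their values were seen, are given here, and none was called. Ntn4, a netrin of basement membranes, averaged 36.6 ± 7.97 CPM at 300 mg/kg/d (SD, n = 5) and 17.7 ± 6.15 CPM at 100 mg/kg/d (SD, n = 3), and Fmo1, a flavin monooxygenase, 11.3 ± 3.78 CPM at 300 mg/kg/d and 5.08 ± 1.98 CPM at 100 mg/kg/d. Among the lower genes, the interferon-induced gene Ifi44 averaged 11.1 ± 0.457 CPM at 300 mg/kg/d and 25.1 ± 8.15 CPM at 100 mg/kg/d. RT1-Da, a class II histocompatibility gene, averaged 2.99 ± 0.337 CPM at 300 mg/kg/d and 6.24 ± 1.49 CPM at 100 mg/kg/d. The chemokine receptor gene Ccr2 averaged 1.10 ± 0.306 CPM at 300 mg/kg/d and 2.41 ± 0.370 CPM at 100 mg/kg/d. The log2 fold changes with all libraries and without replicates 05 and 18 were 1.05 and 0.59 for Ntn4, 1.15 and 1.89 for Fmo1, -1.18 and -0.61 for Ifi44, -1.06 and -0.87 for RT1-Da, and -1.13 and -0.88 for Ccr2.

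ERCC spike-in counts equalled 0.612% to 1.03% of gene counts at 300 mg/kg/d, 1.09% to 1.15% at 100 mg/kg/d and 1.02% to 1.39% in vehicle libraries. They were not used for scaling, since the amount added per library is not stated.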
